A study of Mus musculus with 24 samples.

Results

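Null spermatocytes were compared with wild-type spermatocytes across the transcriptome. The comparison used 7 of the 24 libraries of the series, 3 from Ago413-/- males and 4 from Ago413+/+ males. Of the 55536 genes in the table, 18806 reached 10 counts in 3 or more of the 7 libraries and were tested. All mice were 10 to 15 weeks old on a C57BL/6J background, and each library came from a preparation of enriched pachytene/diplotene spermatocytes pooled from the testes of 2 to 5 mice. The Ago413 allele is a constitutive deletion on chromosome 4, made in 129-derived embryonic stem cells and bred to C57BL/6J, that takes out Ago1 and parts of Ago3 and Ago4, so every cell of the animal carried it and not the germ line alone. Ago2 was left intact in both groups. The sedimentation gradient accepted fractions above 70% purity, and poly(A) RNA was sequenced with strand-specific libraries. In such bulk fractions, fewer cells of a type and less RNA per cell cannot be told apart.

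Argonaute proteins bind small RNAs and silence the transcripts these pair with, and in the testis some are also found in the nucleus. Pachytene and diplotene spermatocytes are the long middle stages of male meiosis, in which homologous chromosomes are joined by the synaptonemal complex and many genes needed later by spermatids begin to be transcribed. In the same cells the unpaired X and Y chromosomes are silenced inside the sex body (meiotic sex chromosome inactivation), and part of that silencing persists in the round spermatids that follow.

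Before any gene was read, the libraries were compared with each other. Levels are given as CPM, the counts of a gene relative to its library total after TMM scaling, and lists of values follow the order of wild-type replicates 1, 2, 4 and 5 and then null replicates 1, 2 and 3. Total counts ranged from 12825105 to 29749058. Wild-type replicate 5 stood apart from the other 3 wild-type libraries and near the null libraries. On the first principal component of log2 CPM, which held 58.6% of the variance, the wild-type libraries lay at -56.7, -54.5, -58.6 and 19.4 and the null libraries at 67.6, 24.5 and 58.3. The correlation of log2 CPM across genes was 0.987 between wild-type replicate 5 and null replicate 2, against 0.964 to 0.971 between wild-type replicate 5 and the other wild-type libraries. The library names hold running numbers, which were 30, 36 and 42 for wild-type replicates 1, 2 and 4, and 78 for replicate 5. Null replicate 1 had number 54, and null replicates 2 and 3 had 84 and 90. What these numbers order is not stated. The comparison of wild-type replicate 5 with null replicates 2 and 3, all with numbers above 60, is therefore given beside part of the results, as a difference with no test.

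**Figure D1:**
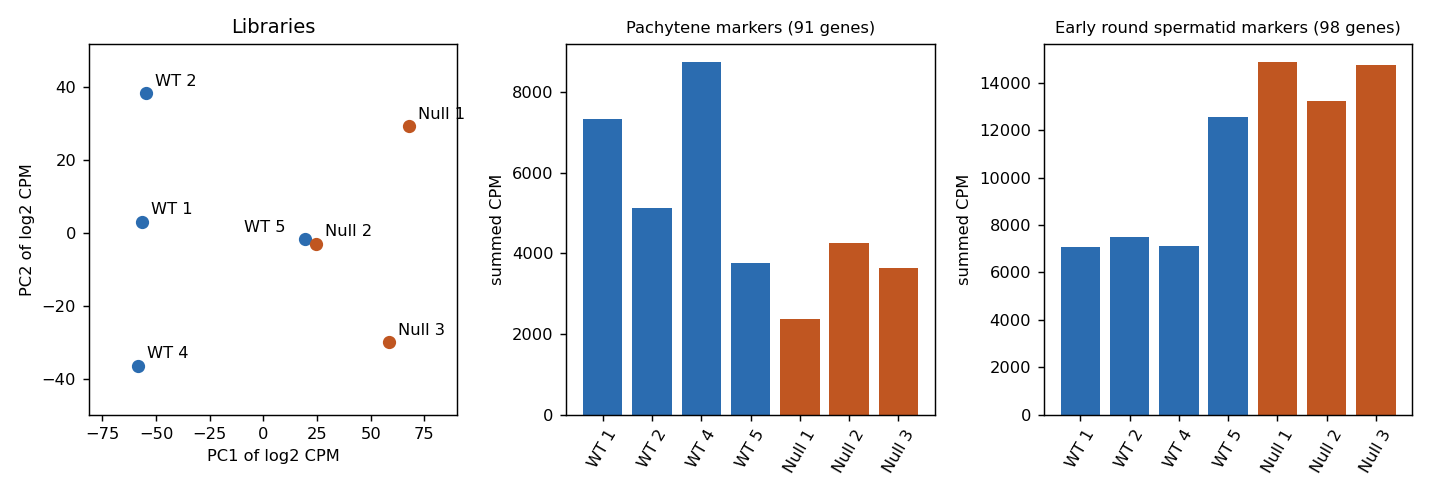
The left panel plots the first 2 principal components of log2 CPM for the 4 wild-type (blue) and 3 null (orange) libraries, and the middle and right panels show, as bars from 0, the summed CPM of the study's pachytene and early round spermatid marker genes in each library. Wild-type replicate 5 sits beside null replicate 2, with 3755 CPM of pachytene markers and 12549 CPM of early round spermatid markers, on the side of the null libraries in the bar panels.

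The cell type label was checked on marker genes. The pachytene markers Psma8, Piwil1, Tdrd5, Sycp3 and Hspa2 summed to 2234 to 3142 CPM in wild-type libraries and 1598 to 2311 CPM in null libraries. Round spermatid markers (Tex36, Sun5, Tssk1, Acrv1 and Cstl1) summed to 528 to 1010 CPM and 1026 to 1234 CPM. Transcripts of late spermatids were also present in every library, as the transition protein and protamine genes Tnp1, Tnp2, Prm1 and Prm2 summed to 3033 to 7718 CPM in wild-type libraries and 3255 to 11789 CPM in null libraries. The 5 Sertoli markers reached at most 48.6 CPM in wild-type libraries and 25.1 CPM in the null, the 4 Leydig markers at most 7.99 and 7.3 CPM, and the 5 macrophage markers at most 3.38 and 7.73 CPM. The erythrocyte globin genes were at 0 in 6 libraries and at 0.0913 CPM in null replicate 3.

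Across the tested genes, 1303 passed the test (edgeR, with an adjusted p under 0.05 and a log2 fold change beyond 0.5 in either direction), which is 6.93% of them. Of these, 900 were higher in null spermatocytes (4.79%) and 403 were lower (2.14%). The median absolute log2 fold change of the called genes was 1.00. In 1224 of the 1303, the 3 null libraries lay wholly above or wholly below the 4 wild-type libraries. Among all tested genes, 2775 (14.8%) had every null library above every wild-type library and 2388 (12.7%) had every null library below.

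Most of these calls lay close to the threshold and were lost when any library but wild-type replicate 5 was left out. Only 32 genes had an adjusted p under 0.04, while 2537 had an adjusted p under 0.06. Leaving out wild-type replicate 5 gave 6631 calls (35.3%), among them all 1303. Leaving out any other library gave between 5 and 15 calls. A fit that also held the 3 heterozygous spermatocyte libraries called 8 genes (0.0425%), and DESeq2 called 4038 genes (21.5%), with 2304 higher (12.3%) and 1734 lower (9.22%). Across the 1303 called genes the difference between wild-type replicate 5 and null replicates 2 and 3 had the direction of the fold change in every case. Those libraries were in the fit that called the genes, so this direction is not an independent result. The median size of the difference was 0.45 on the log2 scale, against 1.32 for wild-type replicates 1, 2 and 4 and null replicate 1. In 551 genes it stayed above 0.5. The counts below are therefore counts of the 7-library fit, and the difference above library number 60 is set beside part of them.

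**Figure D2:**
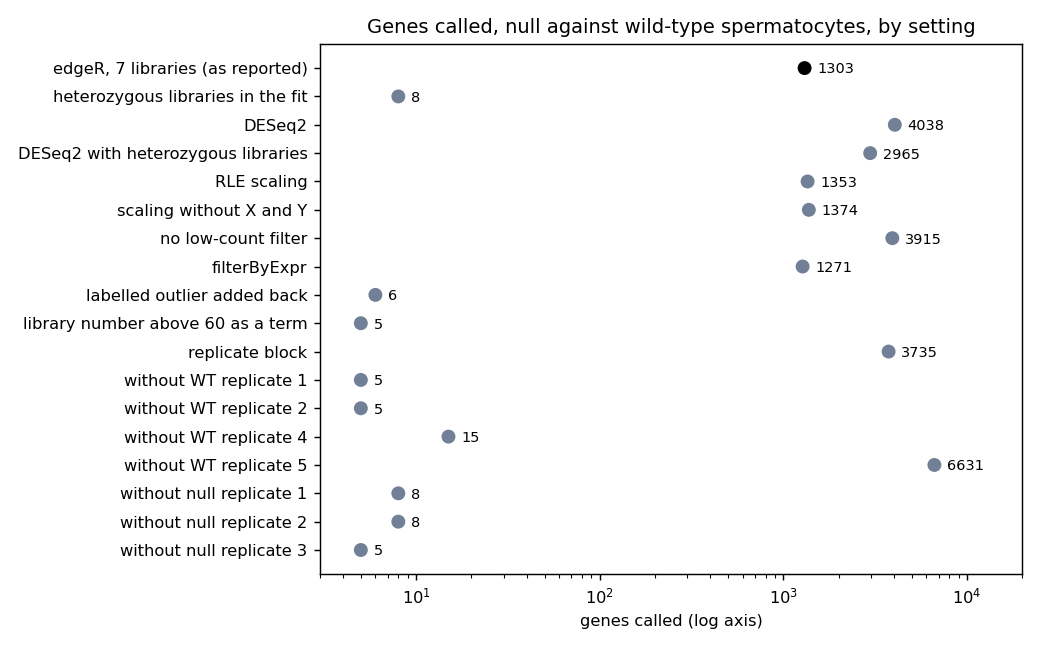
Each point is the number of genes called in the null against wild-type comparison under the setting named on the left, on a log axis. The 7-library fit called 1303 genes, the fits that leave out a library called 5 to 15 genes except for 6631 without wild-type replicate 5, and the count with library number as a term was 5.

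Few calls persisted across fits, and they include the targeted locus. Only 5 genes (0.0266%) were called in the 7-library fit and in all 7 fits that left out a library. They were Ago1, Ago3, Tyr and the processed pseudogenes Gm4864 and Gm10093. A further 6 genes were called in at least 3 of those fits or with the heterozygous libraries, and they were Phc2, Chd5, Tmem35b and the processed pseudogenes Gm5174, Gm6721 and Gm6729. Gm10093 and the other pseudogenes were singled out after their values were seen. Of the 11 genes, 5 lay on chromosome 4.

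Ago1 (ENSMUSG00000041530), the gene that the allele removes, lies on chromosome 4 at 126435012 to 126468583 of GRCm38. It was measured at 3.17, 3.21, 4.4 and 3.28 CPM in the wild-type libraries and had 0 counts in the 3 null libraries. With 3 counts over the null group as the floor, Ago1 was at least 71.4-fold lower (adjusted p = 0.000736), so the null labels held for the 3 null libraries and none of the 4 wild-type libraries was null. Ago1 was 3.61, 4.33 and 1.71 CPM, here without TMM scaling, in the 3 heterozygous libraries, a range that overlaps the wild type.

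Ago3, whose gene lies next to Ago1 at 126331704 to 126429556, moved the other way. Its counts were 6.45, 6.11, 11.7 and 5.37 CPM in wild-type spermatocytes and 41.8, 95 and 78.4 CPM in null spermatocytes. The groups were far apart, and the log2 fold change was 3.28 ± 0.32 (SE, adjusted p = 0.000893). The difference above library number 60 was 3.98. This is a count over the whole gene, of which the allele lacks a part, and it does not speak of protein.

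Ago4, the third gene of the cluster (126489541 to 126533472), was 39.6, 28.8, 48.4 and 18.4 CPM in wild-type libraries and 10.4, 17.7 and 12.8 CPM in the null. Every null library was below every wild-type library, with wild-type replicate 5 just above null replicate 2. The log2 fold change was -1.31 ± 0.31 (adjusted p = 0.0465), and above library number 60 the difference was -0.29. Ago2, the cleaving Argonaute on chromosome 15, had overlapping groups at 10.3, 5.96, 14.8 and 5.02 CPM against 3.06, 5.7 and 5.34 CPM and did not pass (-0.94 ± 0.38, adjusted p = 0.102).

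Among 13 Argonaute and GW182 genes, Ago3 and Tnrc6b were called higher and Ago1 and Ago4 lower, and the list had a median log2 fold change of -0.26 beside 0.00 over all tested genes. Above library number 60 the list median was 0.13. Tnrc6b encodes a GW182 protein, the partner through which Argonautes recruit deadenylases. It was tightly grouped, at 17.7, 16.6, 17.7 and 17.9 CPM against 29.2, 28.4 and 27.3 CPM. The log2 fold change was 0.69 ± 0.16 (adjusted p = 0.0465), and wild-type replicate 5 gave a difference of 0.63.

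**Figure D3:**
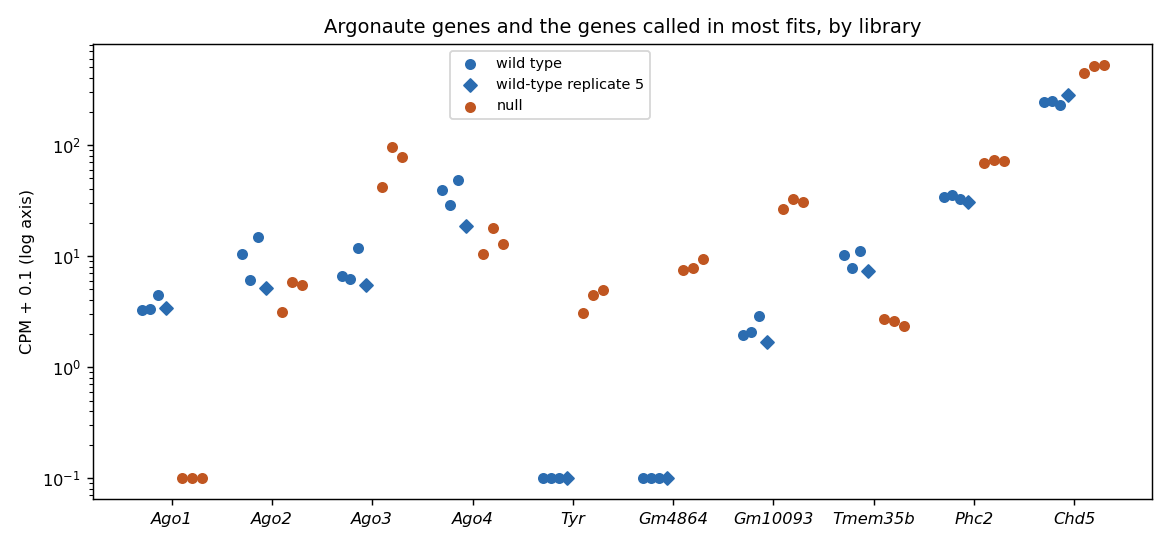
Each point is the CPM plus 0.1 of a gene in a library, on a log axis, with wild-type libraries in blue (replicate 5 as a diamond) and null libraries in orange. Ago1 is at 0 in the null libraries, Tyr and Gm4864 are at 0 in the wild-type libraries, and for Ago3, Gm10093, Tmem35b, Phc2 and Chd5 wild-type replicate 5 lies with the other wild-type libraries.

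Transcripts absent from the wild type were counted in every null library for a pair of genes. Reads assigned to Tyr, the tyrosinase gene of melanin synthesis annotated on chromosome 7 (87424771 to 87493512), had 0 counts in the 4 wild-type libraries and 2.96, 4.4 and 4.83 CPM in the null libraries. This is at least 110-fold higher, against 3 counts over the wild-type group (adjusted p = 0.000893). The allele was built with MICER vectors, a kind that can carry a coat colour transgene, and reads of the chromosome 7 gene and of such a transgene cannot be told apart in these counts. Gm4864 on chromosome 12 (77623549 to 77625009) had 0 counts in the wild type and 7.34, 7.77 and 9.37 CPM in the null, a rise of at least 221-fold (adjusted p = 0.000164). Both were also counted in the heterozygous libraries, where Tyr was 2.31, 2.92 and 0.696 CPM and Gm4864 was 5.31, 5.9 and 4.01 CPM, and both were at 0 in the wild-type library that the labels call an outlier.

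Gm10093, on chromosome 17 at 78491582 to 78493025, was present in both groups, at 1.84, 1.96, 2.8 and 1.57 CPM in wild-type spermatocytes and 26.6, 32.5 and 30.5 CPM in null spermatocytes (log2 fold change 3.87 ± 0.24, adjusted p = 2.34e-05). The heterozygous libraries lay between, at 16.5, 14.7 and 16.2 CPM. As a processed pseudogene it shares sequence with a parent gene, so its counts depend on how reads of near-identical copies were placed, and the same holds for Gm4864, Gm5174, Gm6721 and Gm6729.

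Gm5174, Gm6721 and Gm6729 lie on chromosome 10. Gm6721 was 0.767, 1.25, 2.2 and 1.5 CPM in wild-type libraries and 8, 5.49 and 11.7 CPM in null libraries (2.54 ± 0.36, adjusted p = 0.0195), and the log2 fold changes of Gm5174 and Gm6729 were 2.40 and 2.30. The wild-type library that the labels call an outlier had 4.24, 5.28 and 4.68 CPM (without TMM scaling) of Gm5174, Gm6721 and Gm6729, above the 4 other wild-type libraries for each gene.

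The rest of the 11, besides Ago1 and Ago3, were 3 protein-coding genes of chromosome 4, which were called with the heterozygous libraries. Phc2 and Chd5 were called in 3 of the 7 fits that left out a library and Tmem35b in 2, and with library number as a term none of them passed (adjusted p = 0.0702, 0.0579 and 0.0702 by edgeR). Tmem35b (127123691 to 127129644) was 10.1, 7.68, 11 and 7.18 CPM in wild-type libraries and 2.6, 2.49 and 2.25 CPM in the null. It was the largest autosomal fall named by rule, at -1.88 ± 0.26 (adjusted p = 0.0155), and the difference above library number 60 was -1.56. Phc2, a subunit of Polycomb repressive complex 1, lies at 128654702 to 128752881 and was 34.2, 35.3, 32.3 and 30.8 CPM against 69, 73.5 and 71.8 CPM (1.11 ± 0.14, adjusted p = 0.0123). Chd5, a chromatin remodeler of the histone-to-protamine exchange in spermatids, lies at 152338651 to 152390194 and was 241, 251, 227 and 282 CPM against 440, 510 and 528 CPM (0.98 ± 0.13, adjusted p = 0.0147). For both, wild-type replicate 5 stayed with its group, and the differences above library number 60 were 1.23 and 0.88. The labelled outlier of the wild type had 35.1 CPM of Phc2, near its group, but 703 CPM of Chd5, above every null library, and 4.54 CPM of Tmem35b, between the groups. Over chromosome 4 as a whole, 54 of the 1114 genes tested there passed as higher (4.85%) and 36 as lower (3.23%). These shares were near the 4.79% and 2.14% of all tested genes, and the median log2 fold change of the chromosome was -0.03.

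The germ cell stages were then read from 7 marker lists that the study drew from wild-type single cells. The calls among pachytene markers were in the lower direction and those among early round spermatid markers in the higher one, and wild-type replicate 5 resembled the null libraries in both lists. Of 91 tested pachytene markers, 16 were called lower (17.6%, against 2.14% of all tested genes) and 0 higher, the median log2 fold change was -0.87, and 5 had a positive fold change. At an unadjusted p under 0.05, 3 were higher, while DESeq2 called 58 lower and 0 higher. Of 98 tested early round spermatid markers, 30 were called higher (30.6%, against 4.79%) and 0 lower, all 98 had a positive fold change, and the median was 0.72. None was lower at an unadjusted p under 0.05 or by DESeq2. Without wild-type replicate 5 these counts were 71 lower and 2 higher for pachytene markers and 96 higher for early round spermatid markers. In that fit 2783 of the 18806 tested genes were called lower and 3848 higher. The medians above library number 60 were 0.04 and 0.11, so the pachytene difference was not seen between wild-type replicate 5 and null replicates 2 and 3. In the fit of all 7 libraries with library number above 60 as a term they were -0.82 and 0.60.

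Summed over the list, pachytene markers were 7332, 5129, 8750 and 3755 CPM in wild-type libraries and 2366, 4241 and 3628 CPM in null libraries. Early round spermatid markers were 7080, 7506, 7105 and 12549 CPM in wild-type libraries and 14890, 13233 and 14737 CPM in null libraries. The groups overlapped for the pachytene sum and did not for the spermatid sum.

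Among named members of the pachytene list, wild-type replicate 5 was the lowest wild-type library. Id4, an inhibitor of helix-loop-helix factors best known from spermatogonial stem cells and here a member of the study's pachytene list, was 66.6, 41.9, 68.3 and 24.6 CPM against 10.5, 23.8 and 16.2 CPM (-1.58 ± 0.36, adjusted p = 0.0465). Stambp, an endosomal deubiquitinase, was 52, 25.6, 71.3 and 18.7 CPM against 10.3, 17.6 and 13.8 CPM (-1.59 ± 0.40, adjusted p = 0.0474). In both genes wild-type replicate 5 was only just above null replicate 2. Piwil1, a piRNA-binding protein of pachytene cells, had a larger spread, at 581, 315, 677 and 192 CPM against 78.8, 258 and 174 CPM, and did not pass (-1.37 ± 0.43, adjusted p = 0.0588).

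Early round spermatid markers that passed included Catsper4, a subunit of the sperm calcium channel. It was 102, 103, 98.9 and 184 CPM in wild-type libraries and 245, 228 and 266 CPM in null libraries, with a log2 fold change of 1.01 ± 0.21 (adjusted p = 0.0465) and a difference of 0.42 above library number 60. Spata31, a spermatid gene, was 99.1, 110, 125 and 196 CPM against 248, 239 and 301 CPM (0.98 ± 0.21). The acrosomal vesicle gene Acrv1 missed the threshold, at 126, 152, 123 and 254 CPM against 309, 242 and 291 CPM (0.78 ± 0.23, adjusted p = 0.0534). Of these 3 genes, Acrv1 alone had a null library below wild-type replicate 5.

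No marker of the later spermatid stages passed the edgeR test. Among 64 late round spermatid markers 6 were higher at an unadjusted p under 0.05, among 64 elongating spermatid markers 7 were higher and 1 lower, and DESeq2 called 2 higher in each list. The medians were 0.25 and 0.26. Prm1, a protamine, was 1659, 1451, 659 and 1748 CPM in wild-type libraries and 2611, 1277 and 663 CPM in null libraries (0.14 ± 0.39, adjusted p = 0.82). Wild-type replicate 4 and null replicate 3 were the low libraries for Prm1 and also for Tnp1 (611 and 750 CPM). Above library number 60 the medians of both lists were negative, at -0.35 and -0.18.

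Among 96 diplotene to second-division markers, 11 were called lower (11.5%, against 2.14% of all tested genes) and 0 higher, 6 had a positive fold change, and the median was -0.41. DESeq2 called 34 lower and 0 higher, and 1 was higher at an unadjusted p under 0.05. In 51 of the 96 every null library was below every wild-type library, against 12.7% of all tested genes. Cdkn2d, a cyclin-dependent kinase inhibitor, was 106, 104, 95.2 and 74.1 CPM against 34.2, 69.7 and 54.8 CPM (-0.84 ± 0.23, adjusted p = 0.0485). For this list the difference above library number 60 kept its sign, at a median of -0.21. Leptotene/zygotene markers had 1 of 93 called higher and 3 lower (median -0.09), and spermatogonial markers had 6 of 95 higher and 1 lower (median 0.24). The 3.23% lower in the former and the 6.32% higher in the latter were near the 2.14% and 4.79% of all tested genes. Above library number 60 the medians of both lists were 0.15 and 0.21.

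**Figure D4:**
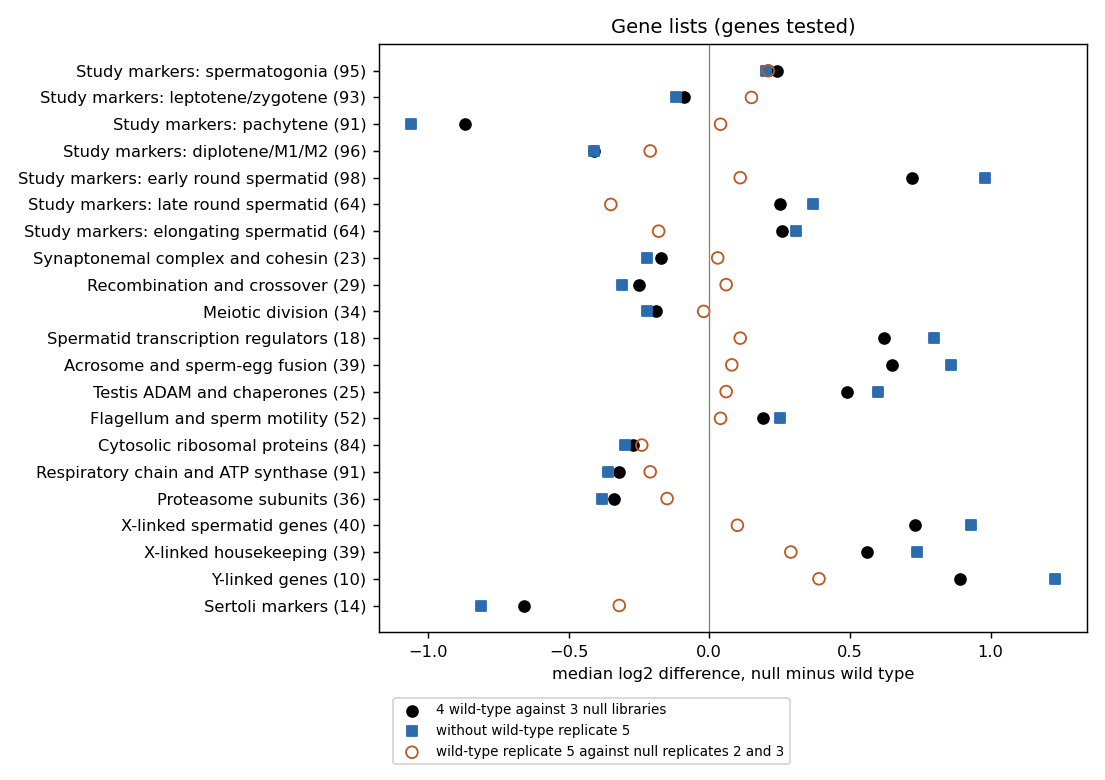
Points are the median log2 difference, null minus wild type, of the tested genes of each list (number in brackets), in the 7-library fit (black), without wild-type replicate 5 (blue squares) and between wild-type replicate 5 and null replicates 2 and 3 (open circles). Pachytene markers lie at -0.87, -1.06 and 0.04 and early round spermatid markers at 0.72, 0.98 and 0.11, while ribosomal protein genes lie at -0.27, -0.30 and -0.24.

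Genes of meiotic chromosome structure gave mixed directions. In the synaptonemal complex and cohesin list, 3 of 23 were called lower (Terb2, Hormad1 and Sycp3) and 1 higher (Smc3), with a median of -0.17. These shares were 13% and 4.35%, against 2.14% lower and 4.79% higher among all tested genes. Sycp3, a lateral element protein, was 142, 115, 210 and 95 CPM against 56.1, 81.4 and 78 CPM (-0.97 ± 0.25, adjusted p = 0.0474). Hormad1, which marks unsynapsed axes, was 74.9, 50.6, 106 and 45.8 CPM against 28.4, 36.3 and 38 CPM (-1.02 ± 0.27). The cohesin ATPase Smc3 went the other way at 53.4, 57.2, 76.8 and 105 CPM against 125, 112 and 167 CPM (0.88 ± 0.23). Above library number 60 the list median was 0.03, and the differences of Sycp3, Hormad1 and Smc3 were -0.25, -0.30 and 0.38.

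In the recombination list 2 of 29 were called higher by edgeR (6.9%, against 4.79% of all tested genes) and 0 lower, although the median was -0.25. Above library number 60 the list median was 0.06. DESeq2 called 2 higher and 6 lower, and at an unadjusted p under 0.05 there were 2 higher and 9 lower. Prdm9, the histone methyltransferase that places meiotic breaks, was scarce, at 0.665, 0.392, 1.45 and 0.615 CPM against 2.14, 1.92 and 2.72 CPM (1.51 ± 0.41, adjusted p = 0.0492). Wild-type replicate 5 stayed within its group, and the difference above library number 60 was 1.74. Tex11, an X-linked crossover gene, had a log2 fold change of 1.07 ± 0.29.

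The sex body and DNA damage list had 2 of 37 called higher and 2 lower, 5.41% each way, against 4.79% and 2.14% of all tested genes. The list median was -0.31 in the 7-library fit and 0.19 above library number 60. DESeq2 called 5 higher and 3 lower, and the unadjusted p was under 0.05 for 8 higher and 11 lower. Brca1, which acts in the damage signal on unsynapsed chromosomes, was 7.21, 7.06, 9.61 and 14.3 CPM against 19.5, 14.8 and 28.1 CPM (1.11 ± 0.29, adjusted p = 0.0474). H2afx, the histone variant that is phosphorylated over the sex body, was 48, 36, 44.6 and 23 CPM against 16.8, 18 and 19.1 CPM (-1.08 ± 0.24, adjusted p = 0.0465). Chek1 was also called higher (0.91 ± 0.24) and Rad1 lower (-1.51 ± 0.38).

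Meiotic division genes had 5 of 34 called lower (14.7%, against 2.14% of all tested genes) and 0 higher by edgeR, while DESeq2 called 11 lower and 1 higher and 2 were higher at an unadjusted p under 0.05. Psma8, the testis-specific proteasome subunit of spermatocytes, was 172, 121, 193 and 82.5 CPM against 44.5, 82.4 and 65.9 CPM (-1.14 ± 0.28, adjusted p = 0.0474). The kinase gene Cdk1 was 52, 61.9, 46.2 and 40.8 CPM against 23.4, 34.8 and 28.2 CPM (-0.80 ± 0.20). Bub3 of the spindle checkpoint and the securin gene Pttg1 fell by 0.69 and 0.60 on the log2 scale. In the piRNA pathway 1 of 25 genes was higher, Tex15 (1.42 ± 0.36), and 1 lower, Pld6 (-1.11 ± 0.27), a share of 4% each way, while DESeq2 called 1 higher and 7 lower and the unadjusted p was under 0.05 for 2 higher and 11 lower.

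From the spermatogonia and meiotic entry list, 5 of 24 were called higher (20.8%, against 4.79% of all tested genes) and 1 lower, the stem cell gene Id4 given above, with a median of 0.49. The spermatogonial genes Zbtb16 (0.10 ± 0.37) and Uchl1 (-0.14 ± 0.26) did not pass. Stra8, the retinoic acid target that opens meiosis, was 3.89, 4.47, 5.81 and 4.38 CPM against 12.8, 7.62 and 9.14 CPM (1.09 ± 0.25, adjusted p = 0.0465), and wild-type replicate 5 lay inside the wild-type range. The receptor gene Kit, of differentiating spermatogonia, was 4.04, 5.64, 5.86 and 8.2 CPM against 16.2, 9.33 and 13.8 CPM (1.14 ± 0.28).

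Lists of spermatid function held calls in the higher direction, in part of their genes. Of 39 acrosome and sperm-egg fusion genes, 9 were called higher (23.1%, against 4.79% of all tested genes) and 0 lower (median 0.65). The counts were 8 higher of 25 for testis ADAM and chaperone genes (median 0.49), 8 of 52 for flagellum genes (0.19) and 3 of 18 for spermatid transcription regulators (0.62), with 0 lower in each. In the same order, DESeq2 called 22, 10, 11 and 9 genes of the 4 lists higher and 1, 1, 0 and 0 lower. It called 12.3% of all tested genes higher and 9.22% lower. At an unadjusted p under 0.05 there were 27, 12, 16 and 12 higher and 1, 1, 1 and 0 lower. Without wild-type replicate 5, 26 acrosome genes and 12 spermatid regulators were called higher, as were 3848 of all 18806 tested genes. Medians above library number 60 lay between 0.04 and 0.11 in these 4 lists.

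Spaca6, which sperm need to fuse with the egg, was 20.7, 17.5, 18.3 and 42.2 CPM against 57.6, 41.9 and 72 CPM (1.21 ± 0.30, adjusted p = 0.0474). Wild-type replicate 5 had a value just above that of null replicate 2. Klf4, a zinc finger factor of round spermatids, was 147, 131, 158 and 238 CPM against 287, 277 and 320 CPM (0.81 ± 0.19). Adam29, a testis metalloprotease-family gene, rose by 1.03 ± 0.23 and Izumo1, the sperm receptor for the egg, by 0.89 ± 0.21.

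In lists of respiratory chain, ribosomal protein and proteasome genes most members had negative fold changes of small size. Of 91 respiratory chain and ATP synthase genes, 15 were called lower (16.5%, against 2.14% of all tested genes) and 0 higher, 54 had every null library below every wild-type library (12.7% of all tested genes did), and the median was -0.32. Of 84 ribosomal protein genes 2 were called lower, Rps27a and Rps3, a share of 2.38% that is near that of all genes, and 41 had no overlap in that direction (median -0.27). Of 36 proteasome genes, 2 were called lower and 1 higher, the X-linked Psmd10, and 15 were wholly below (median -0.34). Medians above library number 60 were -0.21, -0.24 and -0.15. The summed levels of the respiratory genes were 10054, 9539, 9494 and 8710 CPM in wild-type libraries and 7031, 8115 and 7368 CPM in null libraries. Sdhd, a subunit of succinate dehydrogenase, was 58.4, 61.5, 52 and 39.1 CPM against 18.5, 31 and 29.2 CPM (-1.01 ± 0.22).

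The direction of the calls differed between length classes in the 7-library fit. Protein-coding genes were split into 5 classes of like size by the summed length of their exons. In the class of shortest genes (up to 2218 bases) 88 of 2840 genes were called higher (3.1%) and 116 lower (4.08%). Among the longest (7520 bases or more) 219 of 2838 were higher (7.72%) and 25 lower (0.881%). Of all tested genes 4.79% were higher and 2.14% lower. Without wild-type replicate 5 these counts were 626 and 453 in the shortest class and 537 and 374 in the longest, so the contrast was no longer seen. In that fit 3848 of all 18806 tested genes were higher and 2783 lower. DESeq2 gave 328 higher and 332 lower in the shortest class and 405 and 164 in the longest, against 12.3% and 9.22% of all tested genes. The medians above library number 60 went from -0.12 in the shortest class to 0.19 in the longest. The 7-library medians of these classes were -0.02 and 0.03, with the lowest, -0.13, in the middle class. The part of length in the results above was not tested.

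The other lists held few calls, of 0 to 2 genes in each direction, where 4.79% of all tested genes were called higher and 2.14% lower. Chd5 was the only gene called among 19 for sperm nuclear packaging (median 0.22) and among 26 for BAF and CHD remodelers (median -0.15). Above library number 60 these medians were -0.13 and 0.29. In the Polycomb list 2 of 24 were higher, Phc2 and Jarid2 (0.72 ± 0.18), and 1 lower, Pcgf5. Jarid2, a cofactor of Polycomb repressive complex 2, was 22, 21.7, 30.9 and 25.9 CPM against 39.8, 37.3 and 47.4 CPM. Pachytene transcription regulators had 2 of 19 higher, Rfx1 (0.86 ± 0.18) and Nr6a1 (0.65 ± 0.14), with a median of -0.16. Above library number 60 that median was 0.10. The translation list had 1 of 22 higher, the scaffold initiation factor Eif4g1 (0.71 ± 0.15), the p53 and apoptosis list 1 of 25 lower, Sesn2 (-0.87 ± 0.23), and the clustered histones 1 of 20 higher. By edgeR 0 of 11 spermatid kinases, 0 of 25 glycolysis genes and 0 of 20 heat shock genes passed. At an unadjusted p under 0.05 these 3 lists had 6, 2 and 4 genes higher and 0, 1 and 2 lower, and DESeq2 called 3, 1 and 2 higher and 0, 1 and 0 lower.

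The largest autosomal rises, chosen among protein-coding genes with separate groups and a mean of at least 5 CPM, followed Ago3 at some distance. Mpdz, a multi-PDZ scaffold on chromosome 4, was 2.61, 2.04, 2.55 and 5.57 CPM against 14.1, 6.94 and 19.5 CPM (2.05 ± 0.39, adjusted p = 0.0465). Fer1l5, a ferlin-family gene, was 22.6, 27.9, 31.9 and 64.3 CPM against 106, 76 and 169 CPM (1.67 ± 0.34). Adam15 was 4.65, 5.33, 4.75 and 12.7 CPM against 22.4, 13.5 and 29.5 CPM (1.65 ± 0.37). In these 3 genes wild-type replicate 5 lay closer to null replicate 2 than to the other wild-type libraries.

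4921509C19Rik on chromosome 2 differed from them in that wild-type replicate 5 kept to its group, at 2.76, 2.51, 3.3 and 2.91 CPM against 8.62, 6.84 and 12 CPM (1.67 ± 0.26, adjusted p = 0.0317). The remaining genes of this group were Shisa7, Zfp442, Gm7356, Tapbpl and Myh15, with log2 fold changes of 1.50 to 1.88.

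Among the largest falls, after Tmem35b, stood Ptprm (-1.65 ± 0.42), Stambp and Id4, then Adad2, Rad1, Tesmin, Pcgf5, Cry1 and Pou2f2 at -1.56 to -1.43. Tesmin, a testis gene of the metallothionein-like family, was 332, 179, 339 and 136 CPM against 64.8, 114 and 89.4 CPM (-1.47 ± 0.31, adjusted p = 0.0465). Cry1, a repressor in the circadian clock, was 78.2, 53.9, 81.4 and 34.9 CPM against 14.6, 29 and 25.3 CPM (-1.43 ± 0.31). Wild-type replicate 5 was the lowest wild-type library in both genes.

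At the top of the count range, in CPM not scaled for length, the changes were smaller. The called genes of highest mean CPM were Akap12, Spata21, Tulp2, Akap3 and Pmfbp1, which were higher, and Calm2, Cox8c, Ankrd54, Cox4i1 and Ndufaf3, which were lower. The kinase anchor gene Akap12 was 1375, 1824, 1535 and 1597 CPM against 2181, 2366 and 2270 CPM (0.52 ± 0.12, adjusted p = 0.0465), with the difference above library number 60 at 0.54. Calm2, a calmodulin gene, was 933, 649, 1018 and 475 CPM against 208, 462 and 324 CPM (-1.21 ± 0.29). Cox8c, a testis subunit of cytochrome c oxidase, was 505, 471, 449 and 390 CPM against 260, 324 and 300 CPM (-0.62 ± 0.14).

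X-linked and Y-linked genes had higher median fold changes than any autosome. Of 690 tested X-linked genes, 69 (10%) were called higher and 0 lower by edgeR, against 4.79% and 2.14% of all tested genes. DESeq2 called 196 of them higher and 7 lower, against 12.3% and 9.22% of all tested genes. At an unadjusted p under 0.05, 14 X-linked genes were lower. A share of 82.9% had a positive fold change, against 48.4% of autosomal genes. The median log2 fold change was 0.64 on the X chromosome and -0.02 on the autosomes, a gap of 0.66. The X chromosome gave 0.557, 0.623, 0.503 and 0.785% of all counts in the wild type and 1.194, 0.837 and 0.863% in the null. Each null library exceeded each wild-type library, by a factor of 1.56 on the means, and the exact two-sided permutation test gave p = 0.0571 for 4 against 3 libraries, the smallest value it can give. The X-linked minus autosomal score (mean log2 CPM) gave the same p, with -1.866, -1.649, -1.825 and -1.464 against -0.931, -1.346 and -1.349.

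The size of the gap differed with the libraries compared, and null replicate 1 had the highest X-linked share and score of all 7. The median difference of X-linked genes was 1.03 between wild-type replicates 1, 2 and 4 and null replicate 1 and 0.12 between wild-type replicate 5 and null replicates 2 and 3. With library number as a term, the median of X-linked genes was 0.62. The score differed by 0.849 and 0.116 in the same pairs of groups. The autosomal medians ranged from -0.11 on chromosome 11 to 0.13 on chromosome 14. Along the X chromosome, the medians of windows of 20 Mb ranged from 0.47 to 0.70, so the higher level was spread over its length.

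**Figure D5:**
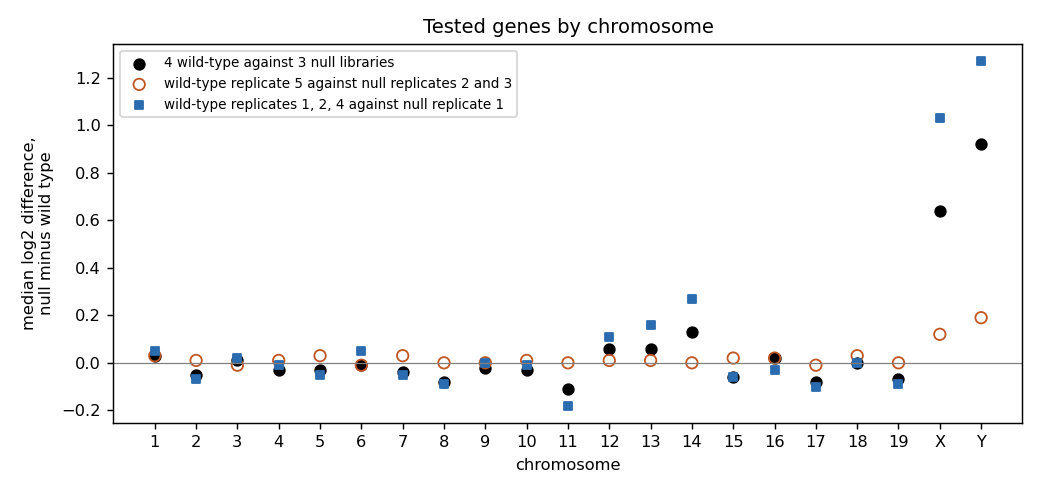
Points are the median log2 difference, null minus wild type, of the tested genes of each chromosome for all 7 libraries (black), for wild-type replicate 5 against null replicates 2 and 3 (open circles) and for wild-type replicates 1, 2 and 4 against null replicate 1 (blue squares). The X chromosome lies at 0.64, 0.12 and 1.03, and the Y chromosome at 0.92, 0.19 and 1.27, while the autosomes lie between -0.18 and 0.27.

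Several X-linked genes held a difference against wild-type replicate 5 that most did not. Huwe1, a ubiquitin ligase, was 21.2, 27.5, 33.7 and 27.7 CPM against 57.8, 56.8 and 63 CPM (1.10 ± 0.18, adjusted p = 0.0317), with 1.11 above library number 60. Med12, a Mediator subunit, was 2.61, 2.82, 5.16 and 4.85 CPM against 8.82, 12.8 and 11.9 CPM (1.52 ± 0.29). Hprt, the purine salvage gene, was 1.02, 3.06, 2.6 and 2.26 CPM against 8.06, 6.06 and 5.11 CPM (1.53 ± 0.34). Their differences above library number 60 were 1.33 and 1.27. The allele was made with vectors that hold Hprt sequence, and whether such sequence adds to the Hprt counts was not tested.

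Other X-linked genes followed the common order of libraries. Map7d3, a microtubule-associated gene, was 14.1, 12.6, 19.6 and 32.3 CPM against 44.3, 37.4 and 54.1 CPM (1.19 ± 0.29), with 0.47 above library number 60. The remaining largest X-linked rises were 4933436I01Rik, 4921511C20Rik and Gm732. X-linked housekeeping genes had 8 of 39 called higher (median 0.56) and X-linked spermatid genes had 4 of 40 (median 0.73), or 20.5% and 10%, where 10% of all X-linked genes were called higher, with 0 lower in both, and the medians above library number 60 were 0.29 and 0.10. Of 15 autosomal retrogenes of X-linked genes, G6pd2 was higher (1.00 ± 0.20) and Cstf2t lower (-0.87 ± 0.22), with a median of -0.16.

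On the Y chromosome all 199 tested genes had a positive fold change, and the median was 0.92. The share called higher, 9 genes or 4.52%, was no greater than the 4.79% of all tested genes. DESeq2 called 46 of the 199 higher, against 12.3% of all tested genes, and without wild-type replicate 5 edgeR called 124 higher, against 3848 of the 18806. Most Y-linked genes are multicopy and their reads cannot be placed with certainty. Of the single-copy genes, Eif2s3y, a translation initiation factor subunit, was 29.9, 32.8, 33.1 and 55.3 CPM against 79.9, 60.3 and 82.1 CPM (0.97 ± 0.22), and Uba1y, a ubiquitin-activating enzyme, was 11, 13, 12.7 and 12.3 CPM against 22.9, 22.2 and 20.3 CPM (0.83 ± 0.18). Uba1y in wild-type replicate 5 was within the wild-type range, and its difference above library number 60 was 0.78.

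Several noncoding classes had higher medians than protein-coding genes. Of 1739 lincRNA genes, 89 were called higher and 22 lower (median 0.45), and of 255 unprocessed pseudogenes 12 were higher and 1 lower (median 0.80). The shares called higher, 5.12% and 4.71%, were near the 4.79% of all tested genes. In other fits they were larger, with 320 lincRNA genes and 41 unprocessed pseudogenes higher by DESeq2 (12.3% of all tested genes were) and 635 and 141 without wild-type replicate 5 (3848 of 18806). The protein-coding genes had 661 higher and 357 lower of 14196 (median -0.06). Bidirectional promoter lncRNAs went the other way, with 1 of 114 higher, 6 lower and a median of -0.17. Above library number 60 the lincRNA median was 0.00 and that of unprocessed pseudogenes 0.10. When all genes were split into 4 classes of like size by mean CPM, autosomal genes had medians of 0.23, 0.01, -0.17 and -0.06 from the lowest class to the highest.

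The stage of each gene was also read from the heterozygous libraries, which were not part of the comparison, as the log2 ratio of round spermatid to spermatocyte CPM. This ratio spanned a narrow range, and no tested gene was at -2 or less. The 36 genes at 2 or more had a median log2 fold change of 0.14 with 0 called by edgeR or DESeq2 and 1 higher at an unadjusted p under 0.05, the 828 genes from 1 to 2 had 0.25 with 21 called higher (2.54%, against 4.79% of all tested genes) and 0 lower, and the 143 genes from -2 to -1 had -0.29 with 5 higher and 8 lower. The range from -1 to 1 held 17799 of the 18806 tested genes and 651 of the 690 X-linked ones. Pachytene markers such as Piwil1 (-0.98) and Sycp3 (-0.82) fell in it, so it was not free of stage differences. Of its 651 X-linked genes, 69 were called higher and 0 lower. Autosomal genes of this range had a median of -0.04 and X-linked genes 0.66. Above library number 60 these medians were 0.02 and 0.13, and those of the genes at 2 or more and from 1 to 2 turned negative, at -0.46 and -0.17.

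No somatic marker passed the edgeR test. All 14 tested Sertoli markers had a negative fold change (median -0.66). Of them, 4 were lower at an unadjusted p under 0.05, 2 by DESeq2 and 6 by edgeR without wild-type replicate 5. Without that replicate edgeR called 2783 of all 18806 tested genes lower. Summed, they were 341, 595, 349 and 247 CPM against 278, 259 and 153 CPM. Clu, a secreted chaperone of Sertoli cells, was 154, 293, 157 and 114 CPM against 116, 120 and 68.6 CPM (-0.82 ± 0.29, adjusted p = 0.0759). Of the Leydig markers 5 were tested, of the macrophage markers 6 and of the peritubular and endothelial markers 8. At an unadjusted p under 0.05 these 3 lists had 0, 2 and 1 genes higher and 0, 1 and 0 lower, and DESeq2 called the same numbers. The macrophage genes Csf1r (1.50 ± 0.42, adjusted p = 0.0515) and Adgre1 (1.17 ± 0.35, adjusted p = 0.055) came near the edgeR threshold as higher and Mrc1 as lower (-1.10 ± 0.35, adjusted p = 0.0594), and the 6 tested macrophage markers had a median of 0.03. Lyz2 was at 0 in the wild type and at most 0.21 CPM in the null. Their part in the results above was not tested.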

How the data were processed

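Messenger RNA of enriched spermatocytes was measured by bulk RNA-seq. The authors trimmed the reads with Trim Galore, aligned them with STAR to mm10 and deposited raw counts per gene, with no normalization. STAR counts reads that map to a single place, so reads of near-identical copies can be lost or misplaced. Symbols and 1-based coordinates came from GENCODE M21 (GRCm38), in which all 55536 identifiers were found. Groups and replicate numbers came from the labels. With TMM scaling, the 7 libraries were fitted in edgeR 4.0.16 under R 4.3.3 by its quasi-likelihood method, and p-values were adjusted over the 18806 genes by the Benjamini-Hochberg method. Genes were called at an adjusted p under 0.05 and an absolute log2 fold change over 0.5. DESeq2 1.42.0, the tool of the study, was an alternative. Errors after ± are standard errors of the fit.

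The comparison, the gene lists and the fit were chosen with earlier results of these data known. The named genes were Ago1 to Ago4, the 10 largest called autosomal rises and falls and the 5 largest X-linked ones among protein-coding genes with separate groups and a mean of at least 5 CPM, the 5 called genes of highest CPM in each direction, called genes at 0 in all libraries of a group, and up to 4 genes a list (those with the largest called changes, or the highest CPM where none was called). The genes called in most fits were added after their values were seen. A count of 0 allows 3 counts, which is 0.103 to 0.235 CPM a library. This floor covers counting error only. No pair of libraries of a group was a repeat deposit, with a chi-square statistic per gene of 10.8 or more. Each library is a pool of mice, and nothing states that pools were independent beyond their labels, so p-values measure the spread between these libraries. The fits were tested on simulated data. The heterozygous libraries, the labelled outliers and the round spermatid libraries entered only alternatives and stage ratios.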

Additional observations from a re-analysis of the deposited data

Results flagged for a closer look

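Of 91 measures examined in the 4 wild-type libraries, 14 had a library far from the other 3 (a gap over the range beyond Dixon's critical value), where chance flags about 1 in 20. Wild-type replicate 5 was that library in 8 of them. They were the first principal component (19.4), the share of counts from the Y chromosome (0.049%), the summed CPM of early round spermatid markers (12549), and the CPM of Mpdz (5.57), Adam15 (12.7), Spaca6 (42.2), Catsper4 (184) and Eif2s3y (55.3), in each of which the replicate lay toward the null libraries.

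Wild-type replicate 4 was the far library in the other 6. Its summed CPM was 2836 for synaptonemal complex and cohesin genes, 4917 for sperm nuclear packaging genes, 845 for p53 response and apoptosis genes and 12555 for elongating spermatid markers, and its CPM was 4.4 for Ago1 and 611 for Tnp1.

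Tyr and Gm4864, at 0 in all wild-type libraries, were counted in the heterozygous spermatocyte libraries, which the comparison did not use. The lowest of these libraries had 0.696 CPM of Tyr and 4.01 CPM of Gm4864. Gm10093, at 2.8 CPM or less in the wild-type libraries, was 14.7 CPM in the lowest heterozygous library.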

How the results depend on the processing

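The number of called genes depended on the libraries and the tool. It was 1303, and it was 8 with the heterozygous libraries in the fit, 6 with the labelled outlier added back and 5 with library number above 60 as a term. DESeq2 called 4038 genes, and 2965 with the heterozygous libraries, an alternative chosen after seeing the data. Without the filter on low counts there were 3915 calls. Fits that left out a library gave 5 to 6631 calls, the highest without wild-type replicate 5 and no more than 15 without any other. RLE scaling, scaling without X and Y and filterByExpr stayed within 1.5 times of the count, at 1353, 1374 and 1271. The replicate number as a block, over the 2 shared numbers, gave 3735 calls. Same-numbered libraries deviated with correlations of -0.069 and 0.187. Differently numbered libraries were not compared in this way, so these values cannot decide whether the numbers pair the libraries.

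The median gap of X-linked over autosomal genes was 0.66, stayed positive in every setting, at 0.51 to 0.85, and was 0.63 with library number as a term. No tested gene fell in the bin of -2 or less for the spermatid to spermatocyte ratio, so the planned difference between the outer bins could not be made. Against the bin from -2 to -1 the top bin was higher by 0.43, with -0.06 when the labelled outlier was added back and -0.03 without null replicate 1. Of 119 named genes called, 119 stayed called by DESeq2, 119 without wild-type replicate 5, 8 with the heterozygous libraries and 5 with library number as a term. None turned its direction in any setting. Most of them were chosen for their called changes, and every setting reused most of the same libraries, so a stable direction is no separate support. Of 40 list medians, 5 changed sign with the labelled outlier added back, 5 without wild-type replicate 4 and 4 without null replicate 1. All but those of late round and elongating spermatid markers (0.25 to -0.05 and 0.26 to -0.01 with the outlier added back, and 0.25 to -0.13 for late round spermatid markers without null replicate 1) started no farther than 0.15 from 0. The X-linked housekeeping median went from 0.56 to 0.26 with the outlier and that of the spermatogonia and meiotic entry list from 0.49 to 0.18 without null replicate 1. A level under 0.103 to 0.235 CPM, depending on the library, could not be told from 0.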
